A study of Homo sapiens with 54 samples.

Results

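SUM1315 is a BRCA1-mutant triple negative breast cancer (TNBC) line. The comparison described here sets parental SUM1315 cells given cisplatin (CDDP) alone, at 2 µM, against untreated parental cells, with no olaparib in either condition. Its members were chosen by their sample titles, 3 control libraries and 3 CDDP libraries, which make 6 of the 54 samples of the series. The remaining SUM1315 conditions used for reference, each with 3 libraries, were parental cells on 4 µM CDDP, parental cells on 8 µM olaparib with and without 2 µM CDDP, and olaparib-resistant (OlaR) cells, kept in 25 µM olaparib, with and without 2 µM CDDP. OlaR cells had been selected by rising olaparib doses and were held in olaparib throughout, so that olaparib is present in each OlaR condition. Nothing in the labels states that the 3 libraries of a condition came from separate cultures, so p-values measure the spread between these libraries, which may be technical. CDDP was given overnight by the labels, and 2 µM was the lower of the doses given to this line.

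CDDP forms platinum adducts that link neighbouring bases of a DNA strand or the opposite strands, and these lesions block DNA and RNA polymerases. Nucleotide excision repair removes the adducts within a strand, whereas crosslinks between strands require the Fanconi anemia proteins, translesion polymerases and homologous recombination, in which BRCA1 takes part. The checkpoint kinases ATR and CHK1 hold cells with blocked forks in S phase or G2, and E2F factors drive the genes of DNA replication. A polymerase that transcribes a long gene meets more lesions per transcript than one on a short gene. The question of the comparison is which transcripts moved at the low dose of CDDP by itself.

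The 3 control libraries held 5737314 to 6607512 reads and the 3 CDDP libraries 6793101 to 7540920. Values below are adjusted read counts, the reads of a gene scaled by the authors to a common library size, without a correction for gene length. The control libraries stood apart from the treated ones. At an equal depth of 4977284 reads, 16878 to 17344 genes had a read in the controls, 15650 to 15836 with 2 µM CDDP, and 14574 to 15433 in the parental libraries of the other 4 treatments. A read in every control library and none with 2 µM CDDP was found for 258 genes, and the opposite for 51 genes, with at most 20 reads in any library. Genes spanning over 200 kb took 3.90% to 3.97% of the reads in the controls and 3.27% to 3.41% after 2 µM CDDP. This share was also below the controls in parental cells on olaparib alone (3.39% to 3.50%) and on olaparib with 2 µM CDDP (3.41% to 3.53%). Control replicate 3 lay furthest from its group. Measured as chi-square over degrees of freedom, where sampling noise alone gives about 1, it differed from the other controls by 15.2 and 20.1, and these from each other by 3.59. The CDDP libraries differed from each other by 7.28, 9.93 and 22.1, the last between replicates 2 and 3. Because every comparison with control rests on these 3 libraries, a property of the control libraries and the effect of CDDP cannot be told apart within it, and the comparisons of CDDP on olaparib and in OlaR cells, which use none of them, are given alongside.

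Among 12 breast epithelial markers, CLDN3 had no read in the 6 libraries and EPCAM, CDH1, KRT5 and KRT19 were at or near 0, whereas KRT7, KRT17, KRT18 and CLDN1 were abundant, and the reads of the list summed to 4508 to 5417 in the controls and 4035 to 4421 after CDDP. The 9 mesenchymal markers summed to 17121 to 19849 and 19933 to 23027 reads, led by VIM. The sums of reads in this paragraph are not adjusted to library size, and the CDDP libraries were deeper. In adjusted read counts VIM overlapped, with 11876, 12484 and 11574 in the controls and 10752, 11482 and 13073 after CDDP. The mesenchymal list had a median log2 fold change of -0.0808. The 9 leukocyte markers summed to 401 to 538 reads in the controls and 146 to 213 after CDDP, nearly all from CD14, with CD3E at or near 0 and CD4 and LYZ without a read. CD14, a receptor of bacterial lipopolysaccharide, had 459, 399.6 and 409.6 in the controls and 149.6, 165 and 115 after CDDP, and fell by 1.57 (SE 0.30, limma adjusted p = 1.25e-04). The 4 endothelial markers summed to 118 to 193 and 203 to 228 reads, nearly all from PECAM1, and the 3 erythroid markers to 0 and to 0 to 3. Adjusted read counts of PECAM1 overlapped, with 124, 118 and 194 in the controls and 170, 173 and 190 after CDDP. Of the receptors, ESR1 had values of 2.37 to 25.6 in the controls, PGR up to 3.09, and ERBB2 16.6 to 29.0, and ESR1 was lower after CDDP with at most 3.56, a call lost without control replicate 3 or CDDP replicate 1 or 2. Among the keratins KRT8 rose by 1.73 (SE 0.30, limma adjusted p = 2.79e-05) and KRT14, a basal keratin, fell by 1.87 (SE 0.51, limma adjusted p = 0.00435), and TWIST1 of the mesenchymal list was at 1.01 with a call lost without any of 4 of the 6 libraries. The part of these marker differences in the results below was not tested.

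A total of 13133 of the 27470 genes in the table were tested, and 1155 (8.79%) were differentially expressed genes (DEGs), at a limma adjusted p of at most 0.05 and a change of at least 2-fold. Of these, 711 (5.41% of the genes tested) were higher after 2 µM CDDP and 444 (3.38%) lower. Without the limit on the fold, 4458 genes had an adjusted p of at most 0.05. The 3 values of one condition all exceeded those of the other for 42.4% of the genes tested. Leaving out control replicate 3 lowered the count to 819 DEGs, 522 higher and 297 lower. The balance of the directions depended on the limits, since without the filter on low values 713 were higher and 1256 lower, and at a log2 fold change of at least 2 in size 83 were higher and 90 lower. In 31 of the higher genes no control library had more than 3 reads, and in 27 of the lower genes no CDDP library did.

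**Figure D1:**
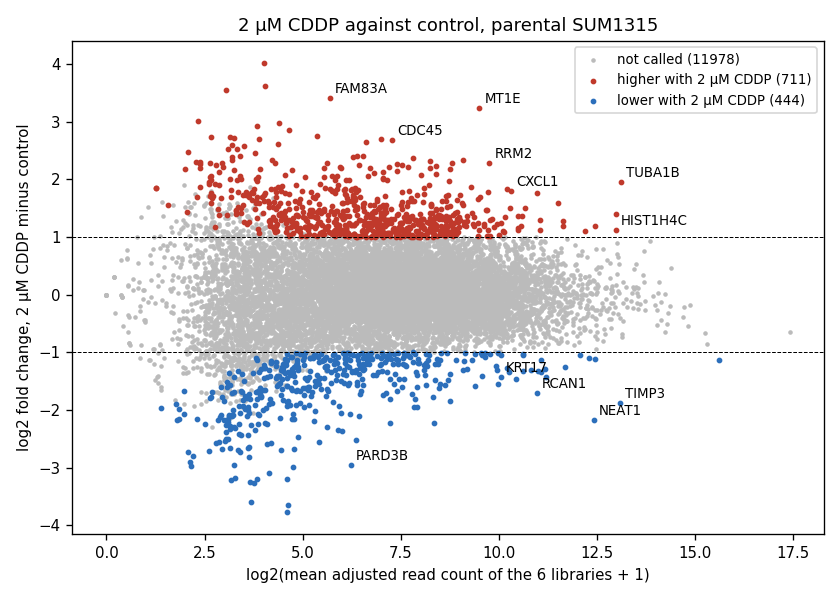
Log2 fold change of 2 µM CDDP minus control (vertical axis) against log2 of the mean adjusted read count of the 6 libraries plus 1 (horizontal axis) for the 13133 genes tested. Red points are the 711 higher and blue points the 444 lower DEGs, dashed lines mark a 2-fold change, and TUBA1B and NEAT1 lie at the abundant end of the DEGs.

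The largest increases among genes with a mean of at least 50 and no overlap of the conditions were in FAM83A, MT1E, TMEM14A, CDC45, EXO1, METTL7A, ESPL1, C16orf59, IL7R and CD9. MT1E, a metallothionein that binds metals at chromosome 16, 56625781 to 56627112 of GRCh38.p14, had adjusted read counts of 166, 167 and 92.4 in the controls and 1351, 1199 and 1364 after CDDP. This rise of 3.24 on the log2 scale (SE 0.13, limma adjusted p = 2.63e-19) had the smallest p-value among the genes that rose. FAM83A, an adaptor of growth factor signaling, had 10.9, 12.4 and 3.18 in the controls and 84.4, 109 and 84.1 after CDDP, a rise of 3.41 (SE 0.32, limma adjusted p = 4.70e-10). For IL7R, the interleukin-7 receptor, the values were 87.6, 84.7 and 46.8 in the controls and 317, 483 and 319 after CDDP, a rise of 2.36 (SE 0.25, limma adjusted p = 5.64e-09). CD9, a tetraspanin of the cell surface, varied most among the controls of these 10 genes, with 152, 384 and 67.8 in the controls and 961, 1247 and 433 after CDDP. The DEGs with the smallest p-values among those that rose were MT1E, RRM2, TUBA1B, TK1 and CDK1. TUBA1B, an alpha tubulin and the most abundant of them, had 3596, 3894 and 3448 in the controls and 13553, 16466 and 12453 after CDDP, a rise of 1.95 (SE 0.09, limma adjusted p = 8.59e-18). Reads of the alpha tubulin genes may be shared between near-identical copies.

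The largest decreases were in PARD3B, IMMP2L, MIR125B1, THSD4, SLC39A11, CHI3L1, NEAT1, ZNF469, TRAPPC9 and LEPR. PARD3B, a cell polarity gene at chromosome 2, 204545475 to 205620162, had 143, 131 and 115 in the controls and 13.2, 10.7 and 27.8 after CDDP. IMMP2L, a mitochondrial inner membrane peptidase at chromosome 7, 110662644 to 111562492, had 151, 150 and 113 in the controls and 30.7, 21.5 and 18.2 after CDDP. On the log2 scale PARD3B fell by 2.95 (SE 0.51, limma adjusted p = 2.79e-05) and IMMP2L fell by 2.53 (SE 0.36, limma adjusted p = 1.11e-06). CHI3L1, a secreted glycoprotein of inflamed tissue, had 513, 484 and 620.4 in the controls and 109.8, 116 and 118 after CDDP, and fell by 2.22 (SE 0.41, limma adjusted p = 5.93e-05). Reads named MIR125B1 came from an entry of 88 bases in a library of messenger RNA, so that the value cannot be assigned to the mature microRNA. NEAT1, the nuclear noncoding RNA that builds paraspeckles, at chromosome 11, 65422798 to 65445540, had 8597, 8589.7 and 9845 in the controls and 1934, 2176 and 1849 after CDDP, and fell by 2.18 (SE 0.09, limma adjusted p = 2.63e-19). Next by p-value among the genes that fell were TIMP3, RCAN1, KRT17 and MIR205HG. TIMP3, an inhibitor of matrix metalloproteinases, and RCAN1, an inhibitor of calcineurin, fell by 1.88 (SE 0.09, limma adjusted p = 2.09e-17) and by 1.70 (SE 0.09, limma adjusted p = 2.80e-15). KRT17, a basal keratin, had 1489.6, 1499.6 and 1614 in the controls and 581, 520.5 and 607 after CDDP, and MIR205HG, the host transcript of miR-205, had 3306, 3512 and 3483 in the controls and 1305, 1343 and 1166 after CDDP.

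**Figure D2:**
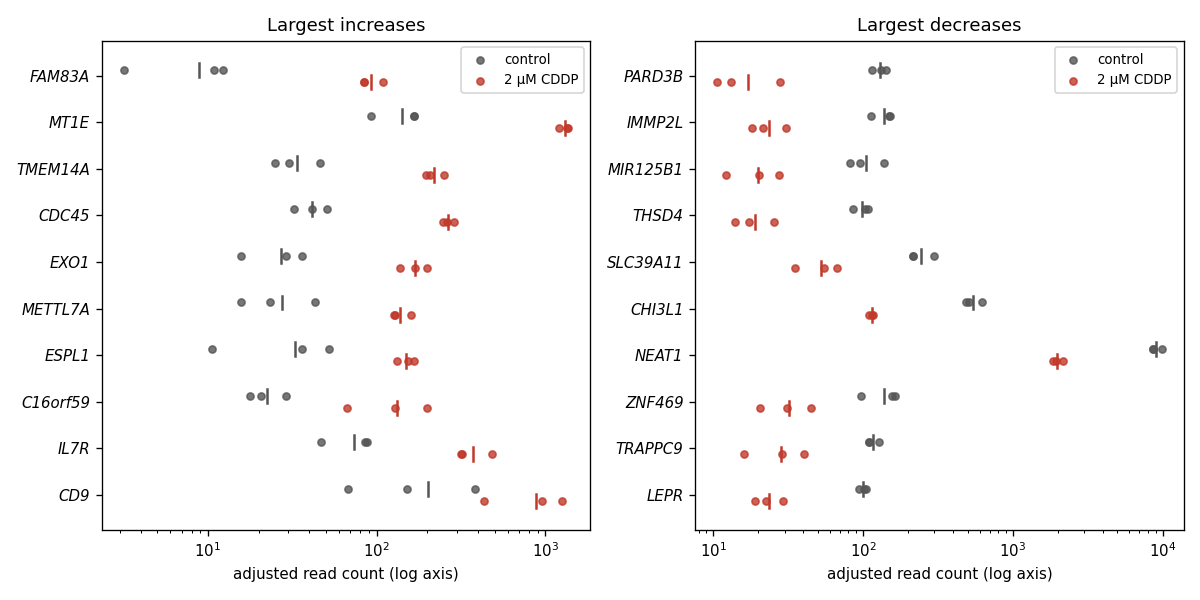
Adjusted read counts (horizontal, log axis) in each control (grey) and 2 µM CDDP (red) library for the 10 largest increases and the 10 largest decreases, with the mean of each condition as a vertical line. The 20 genes were chosen so that the 3 libraries of one condition do not overlap those of the other, and CD9 shows the widest spread within the controls.

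Many genes of DNA replication rose. Of 43 tested genes of the E2F and replication list, 27 were higher DEGs and 0 lower, with a median log2 fold change of 1.25 against 0.015 over all genes tested. CDC45, a subunit of the replicative helicase, had 41.3, 50.6 and 32.2 in the controls and 288, 262 and 247 after CDDP, and rose by 2.67 (SE 0.17, limma adjusted p = 8.90e-14). RRM2, the small subunit of ribonucleotide reductase, which makes deoxynucleotides, had 303, 328 and 249 in the controls and 1379.9, 1646 and 1267 after CDDP, and rose by 2.28 (SE 0.10, limma adjusted p = 4.93e-18). TK1, the thymidine kinase of S phase, rose by 2.18 (SE 0.10, limma adjusted p = 8.59e-18). E2F2, one of the activating E2F factors, had 40.1, 50.7 and 61.9 in the controls and 254, 278 and 187 after CDDP, and rose by 2.21 (SE 0.22, limma adjusted p = 9.90e-10). The list also held UHRF1 at 2.06, ORC1 at 1.75, MCM10 at 1.72 and the 4 GINS genes at 1.14 to 1.61. DTL is described with the olaparib setting, and CLSPN and PCNA, members of this list, also stand in the checkpoint and translesion lists. Its helicase subunits were uneven, since MCM7 (1.08) and MCM2 (1.03) were DEGs whereas MCM3 (0.47), MCM4 (0.58), MCM5 (0.49) and MCM6 (0.23) were under 2-fold. The cyclins of the G1/S step, CCNE1 (-0.08) and CCNE2 (0.27), and E2F3 (-0.07) were not DEGs. With any single library left out, 23 to 28 members were higher.

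Of 44 tested genes of the G2/M and mitosis list, 19 were higher DEGs and 0 lower (17 to 20 higher when 1 library was left out), with a median of 0.927, and a further 20 were higher at an adjusted p of at most 0.05 but under 2-fold and 1 was lower. For 2 µM CDDP given on olaparib or to OlaR cells the median of the list was 0.079 and -0.175, with 0 DEGs by limma in either, and it was 0.971 for olaparib alone against the same controls, with 21 of 44 higher DEGs. Olaparib against control made DEGs of 9.35% of the genes tested, 4.99% higher and 4.36% lower. MAD2L1, a spindle checkpoint protein, had 149.6, 157 and 87.2 in the controls and 572, 536 and 525 after CDDP, and rose by 2.09 (SE 0.17, limma adjusted p = 1.20e-11). CENPA, the centromeric histone, rose by 2.02 (SE 0.19, limma adjusted p = 5.87e-10), and UBE2C, the ubiquitin-conjugating enzyme of the anaphase-promoting complex, by 1.76 (SE 0.16, limma adjusted p = 2.18e-10). CDK1, the kinase of mitotic entry, had 623, 507 and 439 in the controls and 1791, 1912 and 1803 after CDDP, a rise of 1.82 (SE 0.10, limma adjusted p = 2.67e-15). The markers TOP2A (0.75), MKI67 (0.67) and PLK1 (0.35) were below the 2-fold limit. Of 17 tested histone genes of the replication clusters, 2 rose, HIST1H4C by 1.12 (SE 0.11, limma adjusted p = 1.77e-09) and HIST1H2BD by 1.07 (SE 0.30, limma adjusted p = 0.0053), and HIST1H2BD was under 2-fold without CDDP replicate 3 (0.78) or control replicate 2 (0.96). With 2 µM CDDP alone 5.41% of all genes tested were higher DEGs, and the histone list held 1 to 3 when 1 library was left out.

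RefSeq promoters of GRCh38.p14, 250 bases before to 50 bases after the start, were read for 10301 of the 13133 genes tested, for 550 of the 711 higher and for 300 of the 444 lower DEGs, with the first listed start of each gene. The letters TTTGGCG or TTTCGCG, a core of the E2F site, were searched on both strands. They were found in 18 of 36 promoters of the E2F and replication list (50%), in 3 of 37 of the G2/M list (8.11%), in 3 of 34 of the crosslink repair list (8.82%), in 7.09% of the higher and 2.00% of the lower DEGs, and in 5.40% of all promoters. CCAAT, the box bound by NF-Y, was found in 30 of 37 promoters of the G2/M list (81.1%), in 45.8% of the higher and 32.7% of the lower DEGs, and in 37.2% of all. These shares describe letters and not sites in use. The promoters of CDC45 (chr22:19479670-19479969, plus strand) and EXO1 (chr1:241847954-241848253, plus strand) are shown because these genes had the largest increases of the replication and the crosslink repair list, with the E2F letters in capitals, which begin 25 bases before the start of CDC45 and at base 5 of the EXO1 transcript.
CDC45: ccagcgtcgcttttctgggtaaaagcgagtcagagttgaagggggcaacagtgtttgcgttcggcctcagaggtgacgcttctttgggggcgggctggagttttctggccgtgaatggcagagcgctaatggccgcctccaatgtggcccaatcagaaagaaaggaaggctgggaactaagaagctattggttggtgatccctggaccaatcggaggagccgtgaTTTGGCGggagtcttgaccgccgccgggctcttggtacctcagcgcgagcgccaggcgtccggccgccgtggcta
EXO1: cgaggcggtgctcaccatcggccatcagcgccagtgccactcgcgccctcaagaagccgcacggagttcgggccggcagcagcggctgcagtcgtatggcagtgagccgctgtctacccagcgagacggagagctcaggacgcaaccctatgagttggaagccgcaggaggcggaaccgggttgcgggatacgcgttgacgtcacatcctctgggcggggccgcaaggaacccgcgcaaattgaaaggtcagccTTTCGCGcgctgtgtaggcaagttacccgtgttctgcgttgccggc

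Transcripts of crosslink repair genes were examined next. Of 40 tested genes of the Fanconi anemia and homologous recombination list, 17 were higher DEGs and 0 lower (15 to 18 higher when 1 library was left out), with a median of 0.838. For CDDP on olaparib and in OlaR cells the list had 0 higher DEGs by limma, with medians of 0.282 and 0.229, and for olaparib against control 3 higher and a median of 0.153. EXO1, a nuclease that resects broken ends, had 36.3, 29.0 and 15.7 in the controls and 137, 198 and 168 after CDDP, and rose by 2.65 (SE 0.21, limma adjusted p = 7.96e-12). UBE2T, which ubiquitinates the FANCD2 and FANCI pair, had 129.5, 181 and 61.4 in the controls and 530.4, 668 and 434 after CDDP, and rose by 2.24 (SE 0.21, limma adjusted p = 3.09e-10). FANCI rose by 1.97 (SE 0.14, limma adjusted p = 1.55e-12), FANCD2 by 1.31 (SE 0.11, limma adjusted p = 8.45e-11) and RAD54L, a motor protein of strand exchange, by 1.82 (SE 0.25, limma adjusted p = 9.43e-07). The helicases BLM and BRIP1 rose by 1.42 and 1.09. The members at the other end were RAD51B (-0.81), RBBP8 (-0.63), RAD52 (-0.47) and RAD50 (-0.41), none of them a DEG.

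BRCA1, which is mutated in this line, had 201, 202 and 279 in the controls and 406, 429 and 538 after CDDP. It rose by 1.01 (SE 0.13, limma adjusted p = 3.48e-07), next to the 2-fold limit, and was 0.89 to 0.94 without CDDP replicate 3, control replicate 1 or control replicate 2, and 0.94 and 0.97 under the 2 other scalings. The 3′ reads count the transcripts of the locus and do not read the mutation. PARP1 had 1082, 1037 and 1356 in the controls and 1615, 1655 and 1707 after CDDP, a difference of 0.53 (SE 0.09, limma adjusted p = 1.55e-05), below 2-fold.

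The counts of the excision repair and translesion lists, 2 of 25 and 1 of 19 higher, were near the 5.41% over all genes tested. Of 25 tested nucleotide excision repair genes, RPA3, a subunit of the protein that coats single-stranded DNA, rose by 1.65 (SE 0.11, limma adjusted p = 3.60e-13), and LIG1, which joins Okazaki fragments, lay at the limit with 1.00 and was 0.90 to 0.99 in 4 of the 6 fits that left out a library. The adduct recognition and incision genes XPC (-0.22), XPA (-0.63), ERCC1 (0.15) and ERCC4 (-0.07) were not DEGs. Of 19 translesion synthesis genes only PCNA, the sliding clamp, was a DEG, at 1.34 (SE 0.11, limma adjusted p = 9.87e-12), whereas the polymerase genes POLH (0.09), REV1 (-0.39) and REV3L (-0.13) were not. Of 22 checkpoint genes 5 rose, namely RAD9A, H2AFX, CLSPN, CDC25A and TIMELESS. H2AFX, the histone whose phosphorylated form marks breaks, had 734, 735 and 480.3 in the controls and 1861, 1536 and 2092 after CDDP, and rose by 1.51 (SE 0.12, limma adjusted p = 1.01e-11). RAD9A rested on 1 to 3 reads per control library against 17 to 21 per CDDP library. The kinases CHEK1 (0.94), CHEK2 (0.91), ATR (-0.29), ATM (-0.46) and WEE1 (0.04) were not DEGs.

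CDKN1A, the cyclin kinase inhibitor p21, had 656, 604 and 653 in the controls and 1093, 1225 and 1011 after CDDP, a difference of 0.79 (SE 0.08, limma adjusted p = 3.81e-09) that was below 2-fold. SESN1, a stress-induced inhibitor of growth signaling, rose by 1.08 (SE 0.11, limma adjusted p = 1.65e-09), and by 0.98 without control replicate 3. Of 16 BCL2 family genes 1 was a DEG, a lower one, against 3.38% lower over all genes tested, so the count says little about the family. This gene, the death inhibitor BCL2L1, had 1338, 1229.7 and 1977 in the controls and 572, 412 and 554 after CDDP. It fell by 1.54 (SE 0.14, limma adjusted p = 4.50e-10).

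Interferon-stimulated genes, which restrict viruses, were among those that rose. Of 32 tested, 13 were higher DEGs and 0 lower (12 to 14 higher when 1 library was left out), with a median of 0.67. IFIT2, an antiviral protein, had 53.8, 57.9 and 56.9 in the controls and 204, 220.3 and 254 after CDDP, and rose by 1.98 (SE 0.16, limma adjusted p = 1.23e-11). Its relative IFIT3 had 112, 104 and 134 in the controls and 447, 434 and 384 after CDDP, and rose by 1.85 (SE 0.15, limma adjusted p = 1.26e-11). HERC5, the ligase that attaches ISG15, rose by 1.77 (SE 0.42, limma adjusted p = 0.00132). ISG15, a ubiquitin-like modifier, rose by 1.35 (SE 0.13, limma adjusted p = 8.28e-10), and IRF7 by 1.51 (SE 0.32, limma adjusted p = 3.41e-04). OAS1 rested on 0 to 3 reads per control library against 9 to 18 after CDDP. MX1 (0.15), IFI6 (0.43) and the chemokine CXCL10 (0.08) were not DEGs.

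Of 37 tested NF-κB targets, 5 were higher DEGs and 0 lower, with a median of 0.398. Over all genes tested, 5.41% were higher DEGs and the median was 0.015. The 5 targets were CXCL1, CCL2, CCL20, LIF and TRAF1. Without control replicate 3 the list held 3 higher DEGs of 37, against 522 of the 13133 genes tested. CXCL1, a chemokine that attracts neutrophils, had 604, 702 and 423 in the controls and 1944, 1922 and 2026 after CDDP, and rose by 1.80 (SE 0.11, limma adjusted p = 2.82e-14). CCL20 had 28.4, 61.8 and 22.9 in the controls and 89.8, 92.3 and 89.5 after CDDP, and rose by 1.37 (SE 0.28, limma adjusted p = 2.54e-04). TRAF1, an adaptor of TNF receptors, had 25.9, 19.8 and 41.2 in the controls and 56.1, 69.7 and 50.3 after CDDP, and its rise of 1.04 (SE 0.34, limma adjusted p = 0.0159) was not called without CDDP replicate 2 (0.92) or without control replicate 1 (1.00) or 2 (0.81). CCL2 (1.68) and LIF (1.05) lost their calls without control replicate 3 (limma adjusted p = 0.103 and 0.305). BIRC3, an inhibitor of apoptosis, had 554, 525 and 639 in the controls and 838, 837 and 978 after CDDP, a difference of 0.63 (SE 0.13, limma adjusted p = 1.89e-04) that was below 2-fold. The inhibitors NFKBIA (0.11) and TNFAIP3 (0.63) and the chemokine CXCL8 (0.30) were not DEGs.

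The interferon response element was searched as TTTC, any 2 bases and TTTC again, and the κB site as GGG, any 2 bases and TTTCC, on both strands of the same promoters. The first was found in 16 of 24 promoters of the interferon list (66.7%) and in 2.98% of all promoters, 5.09% of the higher and 2.33% of the lower DEGs. The second was found in 11 of 30 promoters of the NF-κB list (36.7%) and in 2.16% of all, 3.09% of the higher and 1.67% of the lower DEGs. IFIT3 (chr10:89327747-89328046, plus strand) held the first at 2 places, 156 and 122 bases before the start, and CXCL1 (chr4:73869143-73869442, plus strand) held the second once, 79 bases before the start, and both promoters are shown with these letters in capitals since CXCL1 had the largest increase of its list and IFIT3 was among the 4 largest of its own.
IFIT3: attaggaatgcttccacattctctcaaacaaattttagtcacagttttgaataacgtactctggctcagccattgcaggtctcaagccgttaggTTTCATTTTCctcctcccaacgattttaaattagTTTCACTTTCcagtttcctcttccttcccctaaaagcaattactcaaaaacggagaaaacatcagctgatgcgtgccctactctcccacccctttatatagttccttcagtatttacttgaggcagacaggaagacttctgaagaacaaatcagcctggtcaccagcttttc
CXCL1: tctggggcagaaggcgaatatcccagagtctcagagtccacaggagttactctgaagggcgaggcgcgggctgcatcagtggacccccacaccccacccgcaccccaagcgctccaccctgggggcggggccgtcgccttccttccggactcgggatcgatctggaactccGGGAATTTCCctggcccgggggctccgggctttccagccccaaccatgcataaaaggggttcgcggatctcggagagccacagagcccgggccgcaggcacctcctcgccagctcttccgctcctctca

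Of 24 tested genes of cholesterol synthesis, 8 were higher DEGs and 0 lower (6 to 11 higher when 1 library was left out), with a median of 0.826. For CDDP on olaparib and in OlaR cells the list had 0 DEGs by limma and medians of -0.0154 and 0.00884, and for olaparib against the same controls 7 of 24 were higher with a median of 0.72. ACAT2, which makes the first intermediate of the pathway, was higher at low counts, with 4.32, 7.26 and 13.4 in the controls and 25.7, 43.5 and 25.0 after CDDP, and rose by 1.87 (SE 0.39, limma adjusted p = 2.90e-04). TM7SF2 rose by 1.27 (SE 0.21, limma adjusted p = 1.50e-05), but by 0.97 without control replicate 2. MSMO1, a sterol methyl oxidase, had 324, 274 and 275 in the controls and 741, 679 and 678 after CDDP, and rose by 1.26 (SE 0.09, limma adjusted p = 1.35e-12). DHCR7, which makes cholesterol from its last precursor, rose by 1.18 (SE 0.13, limma adjusted p = 8.04e-09). Among 3 metallothioneins tested, MT1E rose, whereas MT2A (0.93) and MT1X (0.33) were below 2-fold.

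In the remaining stress lists the counts were small, and those of the ATF4, hypoxia and platinum transport lists were near the shares over all genes tested (5.41% higher, 3.38% lower). Of 19 NRF2 targets, thioredoxin TXN rose by 1.51 (SE 0.11, limma adjusted p = 1.74e-12) and AKR1C1 by 1.18 (SE 0.11, limma adjusted p = 3.74e-10), while heme oxygenase HMOX1 fell by 1.20 (SE 0.15, limma adjusted p = 9.20e-08), less than 2-fold without CDDP replicate 2 (-0.95). Of 19 heat shock genes 2 rose, HSPB8 by 1.49 (SE 0.33, limma adjusted p = 6.44e-04) and HSPA1A by 1.35 (SE 0.22, limma adjusted p = 1.70e-05). HSPA1A, AKR1C1 and the histone genes have near-identical relatives that may share their reads. Of 23 genes of platinum transport and glutathione, CHAC2 rose by 1.24 (SE 0.23, limma adjusted p = 5.94e-05) and the exporter ABCC3 fell by 1.56 (SE 0.17, limma adjusted p = 7.59e-09). The copper transporter SLC31A1, through which CDDP can enter cells, was at 0.08 and ATP7B at -0.62. Of 26 hypoxia genes CA9 and ALDOC were higher and EDN1 lower, but CA9 had 9.09, 10.3 and 1.10 in the controls and 14.6, 11.1 and 44.6 after CDDP and lost its call without control replicate 3 (limma adjusted p = 0.0563), and ALDOC (1.07) was 0.85 without control replicate 2 and 1.00 without CDDP replicate 3. Of 29 genes of the ATF4 stress response, ATF4 alone was a DEG, with 4958, 4729 and 7591 in the controls and 2876, 2268 and 3074 after CDDP and a change of -1.05 (SE 0.12, limma adjusted p = 4.14e-08), which was -0.83 without control replicate 3 and -0.92 without CDDP replicate 2. In the lists with at most 5 DEGs in a direction, leaving out 1 library moved that count by at most 2.

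The AP-1, MAPK feedback, extracellular matrix and TGF-β lists held 1 to 4 lower DEGs each, against 3.38% lower over all genes tested, and the 1 of 27 in the last was near that share. EGR1, a transcription factor of the immediate early response, had 3159, 3463 and 2664 in the controls and 1254, 1474 and 980 after CDDP, and fell by 1.34 (SE 0.14, limma adjusted p = 3.06e-09). Of 25 AP-1 and immediate early genes 3 were lower (EGR1, EGR3 and CTGF) and KLF10 higher, with FOS at 0.68 and JUN at -0.14, and EGR1 was the one lower member left without CDDP replicate 3 or control replicate 1. EGR3 (-1.06, limma adjusted p = 0.0453) lost its call without any one of the 6 libraries and with the replicate number as a block (limma adjusted p = 0.0521), and KLF10 was 0.99 without control replicate 3. AREG, a ligand of the EGF receptor, had 605, 694 and 472 in the controls and 173, 195 and 225 after CDDP, and fell by 1.57 (SE 0.16, limma adjusted p = 1.95e-09). Of 22 MAPK feedback genes AREG, SPRED3 and DUSP5 were lower and ETV1 higher (1.19), and AREG alone stayed lower without control replicate 3 or CDDP replicate 2, while DUSP6 was at -0.14 and SPRY2 at 0.01. TIMP3, MMP13, COL7A1 and COL5A1 were the 4 lower DEGs of 29 extracellular matrix genes, with a median of -0.327. TIMP3 had 13993, 13683 and 13531 in the controls and 3691, 4472 and 3159 after CDDP, and COL7A1, the anchoring collagen of basement membranes, had 948, 984 and 1404 in the controls and 445, 456 and 343 after CDDP. Of 27 TGF-β and activin genes, FSTL3 fell by 1.19 (SE 0.31, limma adjusted p = 0.00349), and by less than 2-fold without control replicate 1 (-0.95).

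No DEG was found with limma among 27 splicing and RNA polymerase II control genes or 36 ribosomal protein genes, of which 12 and 6 had an adjusted p of at most 0.05 below 2-fold. The medians of these lists were 0.149 and -0.0744. The 3 tested members of the mitochondrial transcript list, MTRNR2L1, MTRNR2L2 and MTRNR2L8, are nuclear copies that can share reads with mitochondrial RNA, and they were at -0.79, -0.62 and -0.89, each with an adjusted p of at most 0.05.

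**Figure D3:**
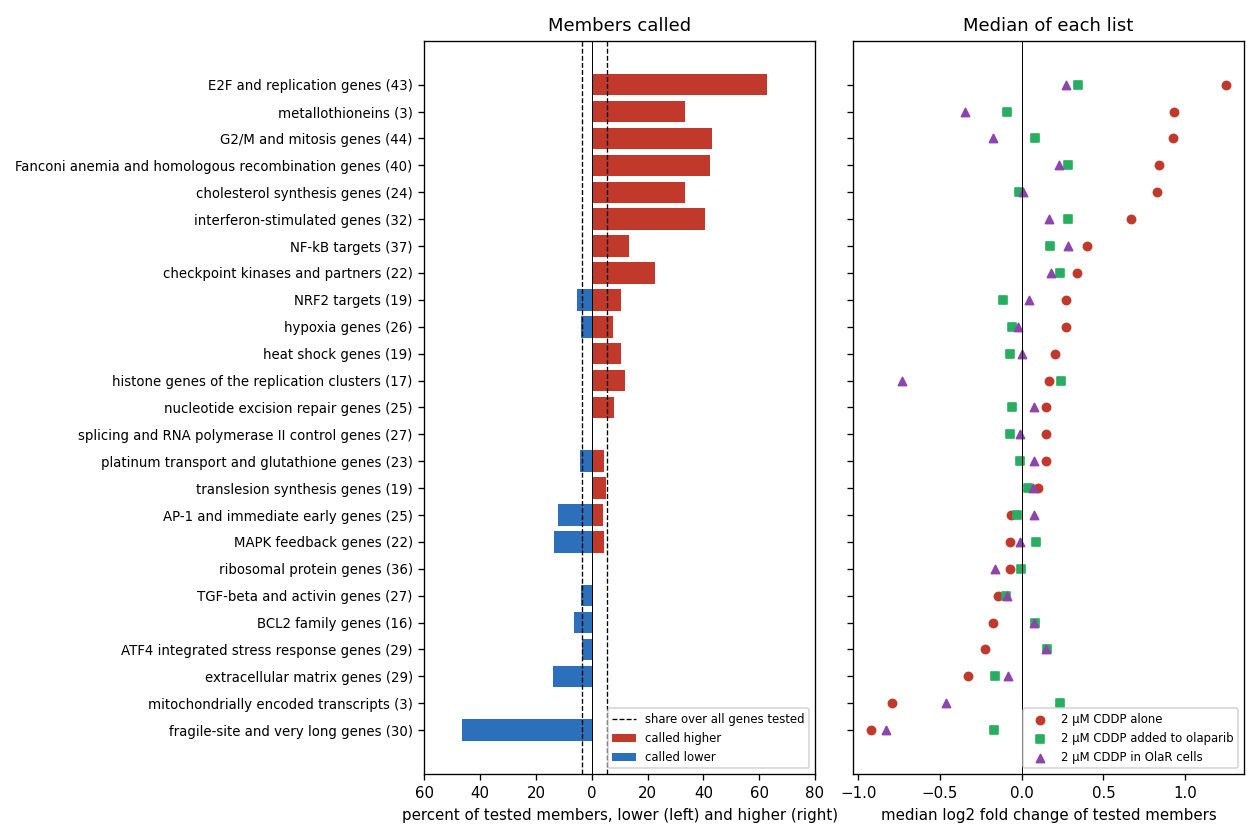
Left, percent of the tested members of each list called higher (red, right of 0) or lower (blue, left of 0) after 2 µM CDDP, with dashed lines at the shares over all genes tested (5.41% and 3.38%) and the number tested in brackets. Right, median log2 fold change of each list for 2 µM CDDP alone (circles), added to olaparib (squares) and in OlaR cells (triangles), in which the replication list is at 1.25, 0.346 and 0.271 and the very long genes at -0.923, -0.172 and -0.83.

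Genes that span a long stretch of the genome were lower more often. Spans were the RefSeq start to end of GRCh38.p14, known for 12912 of the genes tested. The 175 genes over 500 kb had a median log2 fold change of -0.756 after 2 µM CDDP, 44 (25.1%) were lower DEGs and 1 was higher. Between 200 and 500 kb the median was -0.263 with 58 of 751 (7.72%) lower, and between 5 and 20 kb it was 0.119 with 77 of 3517 (2.19%) lower. Genes over 200 kb made up 7.17% of the genes tested, 23.5% of the lower DEGs (102 of 434 with a span) and 2.43% of the higher (17 of 700). Leaving out 1 of the 6 libraries gave 32 to 42 lower genes over 500 kb and medians of -0.793 to -0.705. Olaparib alone against the same controls gave a median of -0.297 over 500 kb. There 16 of 175 (9.14%) were lower DEGs and 1 was higher, against 4.36% lower over all genes tested. Long genes also had lower counts, with a median adjusted read count of 71.4 over 500 kb against 144 between 5 and 20 kb. Among genes with a mean of at least 50, the 635 over 200 kb still had a median of -0.244 with 54 lower, and the 8704 below had 0.0689 with 141 lower.

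Of 30 tested genes of the fragile-site and very long gene list, 14 were lower DEGs and 0 higher, with a median of -0.923. FHIT, which spans the most active common fragile site, had 15 to 30 reads per control library and 2 in each CDDP library, and NRXN3 had 4 to 11 reads in the controls and none after CDDP. TRAPPC9, a trafficking subunit, had 129, 109.8 and 109.7 in the controls and 40.2, 28.9 and 16.2 after CDDP, and fell by 2.08 (SE 0.40, limma adjusted p = 1.15e-04). THSD4, outside the list, had 108, 103 and 86.0 in the controls and 25.6, 17.5 and 14.0 after CDDP, and fell by 2.35 (SE 0.37, limma adjusted p = 6.13e-06). Other DEGs of the list were LRP1B (-2.58), CNTNAP2 (-1.98), CDH13 (-1.48), WWOX (-1.45), NBEA (-1.40), EXOC4 (-1.39), DIAPH2 (-1.27) and VPS13B (-1.05). LPP, at -1.02, was -0.95 to -0.99 without CDDP replicate 3 or control replicate 1 or 2. The list was not uniform, since DMD (0.04), FTO (0.06) and FRMD4A (0.25) lay between 0.04 and 0.25.

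**Figure D4:**
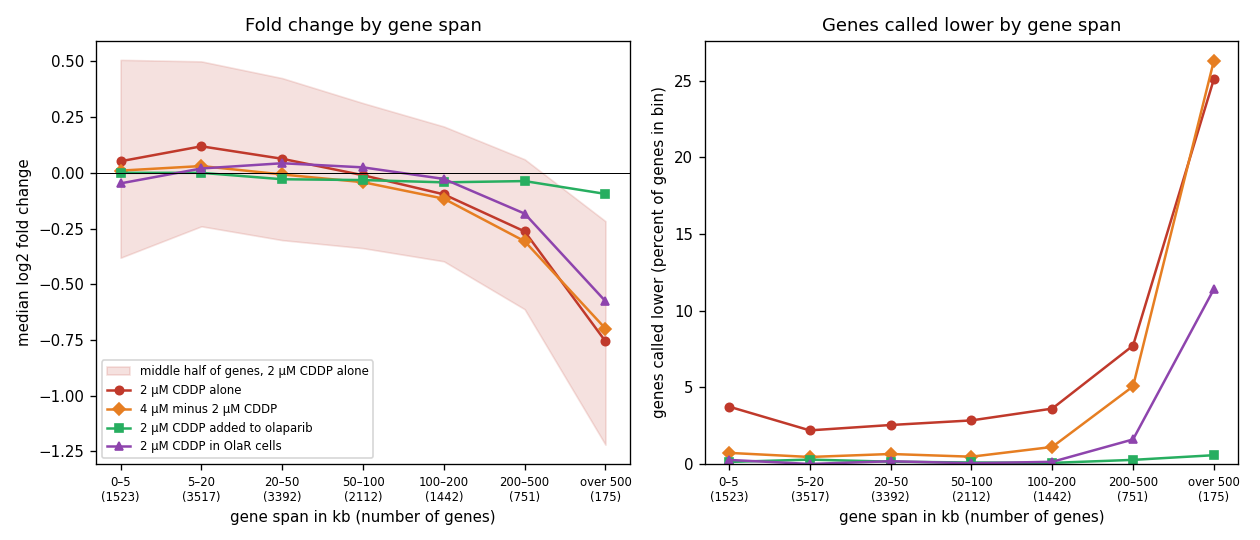
Median log2 fold change (left) and percent of genes called lower (right) by gene span in kb, for 2 µM CDDP alone, 4 µM minus 2 µM CDDP, 2 µM CDDP added to olaparib and 2 µM CDDP in OlaR cells, with the number of genes in brackets and the shaded band covering the quartiles for CDDP alone. Over 500 kb the medians are -0.756, -0.699, -0.0947 and -0.576.

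Doubling the dose was examined without the controls, by setting 4 µM against 2 µM CDDP in the parental cells. This gave 196 DEGs (1.49% of the genes tested), 34 higher (0.259%) and 162 lower (1.23%), and 105 without CDDP 2 µM replicate 2 or 325 without CDDP 2 µM replicate 3. The lower genes were long, with 84 of the 159 that had a span (52.8%) over 200 kb. Of the 711 genes higher at 2 µM, 3 rose further and 8 moved back, with a median step of -0.0108, and of the 444 lower, 41 fell further and 2 moved back, with a median step of -0.158. The 2 µM libraries enter both differences with opposite signs, which pushes the step back toward control. In the replication list 0 of 43 were limma DEGs between the doses (median 0.302), and in the very long gene list 14 of 30 were lower DEGs (median -1.05). The 5 smallest p-values of the dose step were in TBC1D5, TIMP3, RBMS3, LPP and INHBA. TBC1D5 was at -0.82 (SE 0.12, limma adjusted p = 1.11e-06) at 2 µM and fell by a further 1.49 (SE 0.12, limma adjusted p = 3.12e-10). TIMP3 fell by a further 1.10 (SE 0.09, limma adjusted p = 4.00e-10), whereas INHBA, an activin subunit, was at 0.40 at 2 µM and rose by 1.15 between the doses (SE 0.12, limma adjusted p = 1.84e-07). Of the 37 NF-κB targets 4 were higher DEGs between the doses and 1 was lower. TRAF1 was among the higher ones at 1.01 (SE 0.34, limma adjusted p = 0.048), and CXCL1 was at 0.93 (SE 0.11, limma adjusted p = 8.65e-07), just under 2-fold.

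The same dose gave fewer DEGs in cells that carried olaparib. There, 65 genes (0.495%) were DEGs when 2 µM CDDP was added to olaparib, 41 of them higher (0.312%) and 24 lower (0.183%), and in OlaR cells 70 (0.533%), 25 higher (0.19%) and 45 lower (0.343%), against 1155 without olaparib. The OlaR libraries were shallower, with 3446613 to 4486158 reads, and the parental libraries on olaparib with 2 µM CDDP held 4977284 to 6377045. The effect of CDDP alone differed from that on olaparib for 2944 genes (22.4% of those tested) and from that in OlaR cells for 2405 (18.3%), by the interaction term of the same fit and with no limit on the fold. The difference was positive for 14.0% and negative for 8.44% of the genes tested in the first, and for 11.1% and 7.18% in the second. Among the 711 higher DEGs the difference was called for 528 (74.3%) and 496 (69.8%), and among the 444 lower for 200 (45%) and 193 (43.5%), with the larger effect in cells given CDDP alone for each of them. Since the contrast that chose these genes is a part of the interaction, these shares describe the DEGs and are no separate test. Without control replicate 3 the counts were 357 and 358 of 522 higher genes and 136 and 133 of 297 lower genes. The DEGs higher with CDDP alone had a median of 1.33 there, 0.0338 on olaparib and 0.121 in OlaR cells, and those lower had medians of -1.44, -0.197 and -0.137.

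MT1E, KRT17, TUBA1B, RCAN1 and TIMP3 had the smallest p-values for the difference between CDDP alone and on olaparib, and MT1E, NEAT1, TK1, TUBA1B and RRM2 for that between parental and OlaR cells. MT1E, which rose by 3.24 with CDDP alone, was at -0.09 on olaparib and -0.28 in OlaR cells. Olaparib alone, measured against the same controls, raised it by 3.54 (SE 0.13, limma adjusted p = 1.61e-20). RRM2 rose by 2.28 alone and was at 0.60 (SE 0.10, limma adjusted p = 5.88e-04) on olaparib and 0.36 in OlaR cells, with 1.27 for olaparib against control. For NEAT1 the 3 CDDP values were -2.18, -0.85 and 0.08, and olaparib against control gave -1.11. RCAN1 was at -1.70, 0.04 and -0.05, with -2.68 for olaparib. The comparisons of olaparib and of CDDP with control share the 3 control libraries, and their values are set side by side without a test. E2F2 was at 2.21 with CDDP and 0.11 with olaparib, IL7R at 2.36 and -0.22, CHI3L1 at -2.22 and -0.45, and CXCL1 at 1.80 and -0.77.

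**Figure D5:**
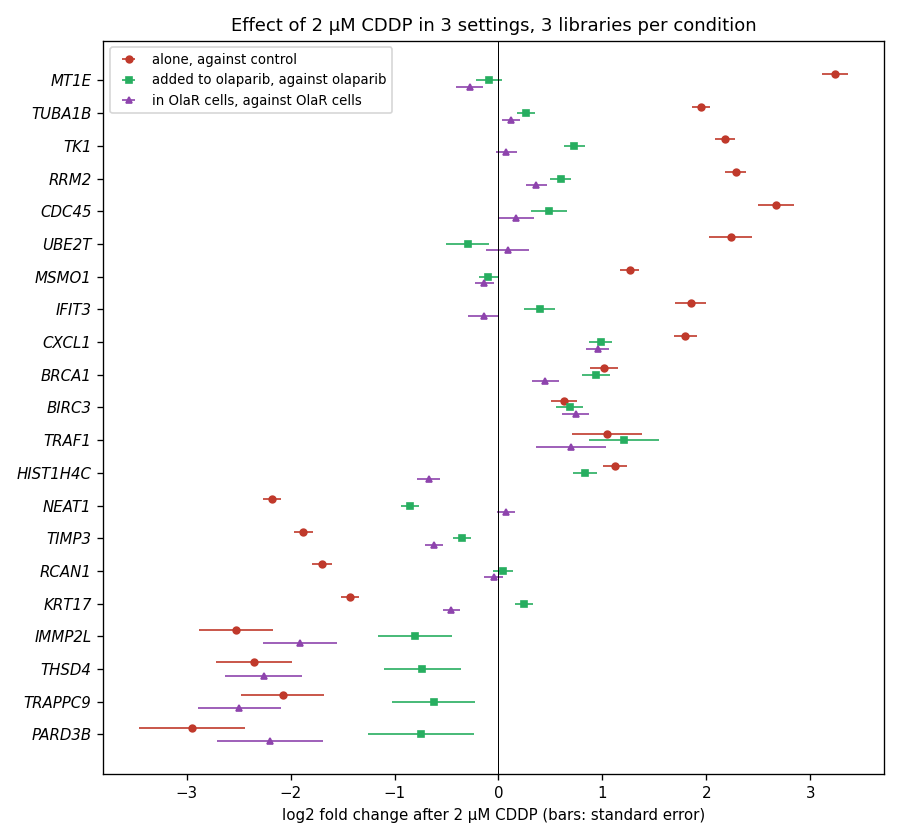
Log2 fold change after 2 µM CDDP (horizontal, bars show the standard error) for 21 genes in parental cells without olaparib (circles), in parental cells on olaparib (squares) and in OlaR cells (triangles), each against the same cells without CDDP. MT1E is at 3.24, -0.09 and -0.28, BIRC3 at 0.63, 0.68 and 0.74, and THSD4 at -2.35, -0.73 and -2.26.

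Part of the response was also present in comparisons that used no control library. DTL, an adaptor that marks replication proteins for degradation, had 148, 159 and 153 on olaparib and 381, 394 and 443 on olaparib with CDDP, and its rise was 1.49 alone, 1.40 (SE 0.12, limma adjusted p = 5.16e-09) on olaparib and 0.64 (SE 0.12, limma adjusted p = 0.00227) in OlaR cells. CXCL1 rose by 1.80 alone and was at 0.98 (SE 0.11, limma adjusted p = 9.95e-07) and 0.95 (SE 0.11, limma adjusted p = 7.76e-06), just under 2-fold, in the other two. BIRC3 was at 0.63, 0.68 (SE 0.13, limma adjusted p = 0.00165) and 0.74 (SE 0.13, limma adjusted p = 7.89e-04), and its difference between settings had an adjusted p of 0.858 and 0.711. BRCA1 was at 1.01, 0.94 and 0.45. The interval of the difference between CDDP alone and on olaparib for BRCA1 was -0.30 to 0.46 (95%, log2), and for BIRC3 -0.42 to 0.30. HIST1H4C rose by 1.12 alone and was at 0.83 on olaparib, but at -0.67 (SE 0.11, limma adjusted p = 6.78e-04) in OlaR cells.

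The shared DEGs were few in number, out of 65 DEGs on olaparib and 70 in OlaR cells. Opposite calls were made for DNAJC11, PWARSN and SCUBE3 on olaparib, and for GCNA and PLCG2 in OlaR cells. Of the higher DEGs, 6 were also DEGs on olaparib (0.844% of 711 and 14.6% of 41) and 6 in OlaR cells (0.844% and 24% of 25), and of the lower, 7 were (1.58% of 444 and 29.2% of 24) and 14 (3.15% and 31.1% of 45). Over all genes tested, 5.41% were higher and 3.38% lower DEGs with CDDP alone. The shared percents of the sets of 41, 25, 24 and 45 were each above these shares. The higher genes shared with the olaparib setting were DMBT1, DPF1, DTL, SNAR-E, TMEM160 and TRAF1, and those shared with OlaR cells were ELOVL4, EVI2B, FAM111B, RAB17, TRPA1 and ZNF695, all chosen for these calls after their values were seen. FAM111B, a protease of replicating cells, had 57.3, 68.2 and 62.1 in the controls and 108, 103 and 179 after CDDP. In OlaR cells its values were 90.2, 139 and 119 without and 202, 359.5 and 254 with CDDP. Of the 14 lower genes shared with OlaR cells, 12 spanned over 200 kb and 7 over 500 kb, and of all 45 genes lower in OlaR cells 32 (71.1%) spanned over 200 kb, against 7.17% of the genes tested. SEMA5A, a semaphorin, had 337, 338 and 473 in the controls and 107, 97.8 and 86.6 after CDDP. In OlaR cells it had 642, 626 and 555 without and 337, 254 and 291 with CDDP. The 3 libraries of each condition did not overlap for SEMA5A in either cell type, as was so for 42.4% of the genes tested in parental cells. SEMA5A was picked from genes already called lower in both, so this is no separate support. On olaparib, 2 of the 7 shared lower genes were over 200 kb, SLC39A11 and TENM2. The very long gene list had a median of -0.172 and 0 DEGs on olaparib, and -0.83 with 8 of 30 lower in OlaR cells. Median changes of the replication list were 0.346 on olaparib and 0.271 in OlaR cells, with 1 and 0 of its 43 genes higher DEGs, and of the interferon list 0.28 and 0.167, with none. Olaparib against control gave medians of 0.125 for the replication list, 0.642 for the interferon list and -0.209 for the very long genes, with 5 and 9 higher and 3 lower DEGs.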

How the data were processed

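RNA was measured with a 3′ messenger RNA library kit that marks strand, so counts follow transcripts irrespective of gene length. Per the labels, reads were demultiplexed with CASAVA 1.8.2 and processed with FastQC, STAR, HTSeq and edgeR on hg38, without a version for the latter tools. The signal in the authors' deposited table is the read count per gene, adjusted by the authors with edgeR to a common library size, and is not whole. Inverting that adjustment, at a dispersion of 0.01039, returned whole reads that gave back 100% of the values within 1e-06, and reads quoted in the text are these. Other tables of the authors hold their own fold changes and p-values and were not used, and 0 columns of other samples were in the table.

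The 27 SUM1315 libraries (9 conditions of 3) were fitted together with limma 3.58.1 in R 4.3.3 with an intensity trend, after adding a pseudocount of 1 and taking log2. A gene entered the fit when 3 or more libraries had values of 10 or higher. The pseudocount understates the change of low genes. The count test planned first was replaced since the values are not whole. Adjusted p-values follow Benjamini and Hochberg over all genes tested. A gene was a DEG when its adjusted p was 0.05 or lower and its log2 fold change 1 or more in size, whereas an interaction was called on the adjusted p alone. The fit was checked on simulated data.

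Genes named are the 10 that rose and the 10 that fell most with a mean of at least 50 and no overlap of the conditions, the 5 with the smallest p-value in each direction, up to 4 DEGs of each list, 5 for the dose step and each interaction, and BRCA1, PARP1, CDKN1A, BIRC3, TRAF1 and CCL20. List members that were not DEGs, and genes named for an overlap or for another setting, were chosen after their values were seen. The lists and the comparison itself were chosen with earlier results of these data known. Of the gene names, 25194 matched a current RefSeq symbol, 1224 an older one and 1050 none. Rows with names turned into dates (27) or repeated (2) are not named, and some genes and 1 list that the rule would name are not reported here.

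Replicate numbers were not used as pairs in the main fit. The deviations of same-numbered control and CDDP libraries correlated at -0.00969 to 0.156, against -0.0977 to 0.163 over all pairs of conditions. No correlation of differently numbered libraries is given beside these, so whether the numbers mark pairs is left undecided. Depths not given above were 5420890 to 6202365 reads on 4 µM CDDP and 5763500 to 6943388 on olaparib alone, in parental cells. Intervals rest on the spread between libraries in the limma fit, whereas read limits cover counting error only.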

Additional observations from a re-analysis of the deposited data

Results flagged for a closer look

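The effect of 2 µM CDDP differed between settings by the interaction term of the limma fit, at an adjusted p of at most 0.05. Between parental cells without and with olaparib it differed for 2944 genes, and the genes with the smallest p-values differed by 3.33 (MT1E), -1.67 (KRT17), 1.68 (TUBA1B), -1.74 (RCAN1) and -1.53 (TIMP3) on the log2 scale, effect without olaparib minus effect with it. Between parental and OlaR cells it differed for 2405 genes, and the corresponding values were 3.52 (MT1E), -2.26 (NEAT1), 2.10 (TK1), 1.83 (TUBA1B) and 1.92 (RRM2), parental minus OlaR. Both differences rest on the 3 control libraries.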

How the results depend on the processing

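Among the 99 genes named by the rule, none that was a DEG in the main fit or in an alternative changed its direction. The direction of other genes in the text was not checked in this way. The balance of higher and lower DEGs did change. A fold limit of 2 on the log2 scale left 173 DEGs for 2 µM CDDP (83 higher, 90 lower) and 41 for the step to 4 µM, and no fold limit gave 4458 (2552 higher, 1906 lower) and 1375. A log2 difference of at least 1 left 1130 genes in the olaparib and 853 in the OlaR interaction. With no filter on low values there were 1969 DEGs, of which 1256 were lower, so that higher genes were 36.2% of the DEGs instead of 61.6%, and with a value of at least 50 in 3 libraries 241 were lower and the share was 70.3%. With only the compared conditions in the fit, 2 µM CDDP gave 1068 DEGs, 613 higher and 455 lower. The dose step then gave 111 DEGs, and the olaparib and OlaR interactions gave 1998 and 1787 genes. Leaving out 1 library gave 819 to 1320 DEGs for 2 µM CDDP (522 to 865 higher, 297 to 466 lower), 105 to 325 for the dose step, and 2195 to 3264 and 1936 to 2627 genes for the interactions. Among the fits that left out 1 library, the lowest counts came without control replicate 3, except for the dose step, lowest without CDDP 2 µM replicate 2. Both interaction counts from the compared conditions alone were below these lowest counts. A replicate block gave 1151 DEGs, 195 for the dose step and 2947 and 2372 genes for the interactions, and of the named genes it changed the call of EGR3 alone. Quantile normalization, median of ratios scaling and limma voom on the recovered reads gave 1190, 1126 and 1222 DEGs for 2 µM CDDP, with 58.9%, 56.7% and 57.0% of them higher, and moved the median of all genes by less than 0.1. The share of long genes called lower depends on where the bins end, being 25.1% over 500 kb and 5.58% in the longest quartile of spans. Of 99 named genes 78 lost no call in the fits that tested them, and 90 of the 99 were tested with the filter at 50. Leaving out a library for the genes over 500 kb, for the DEGs that differ between settings and for the lists was chosen after seeing the data. Depth limits the genes with at most 3 reads per library in a condition, whose folds are not given.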
